A study of Mus musculus with 9 samples.

Results

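The 10 genes described here encode the light-signalling cascade of mouse cone photoreceptors: the cone opsins Opn1sw and Opn1mw, the cone transducin subunits Gnat2, Gnb3 and Gngt2, the phosphodiesterase subunits Pde6c and Pde6h, the cone arrestin Arr3, and the channel subunits Cnga3 and Cngb3. They were taken by symbol from a table of 26683 genes, and all 10 were present and passed the filter on low counts. RNA was sequenced from mouse retinas collected at postnatal day 17, in 3 groups of 3 libraries. The Gel and PBS groups had undergone oxygen-induced retinopathy (OIR): newborn mice are held in high oxygen, which halts growth of the retinal vessels, and abnormal vessels form after the return to room air. On postnatal day 15 the Gel group had been given PCC1/PHCF hydrogel into the vitreous, a gel that releases procyanidin C1 (PCC1, a plant polyphenol), and the PBS group phosphate-buffered saline by the same route. The Normoxic group was kept free of OIR, and its library names carry WT. Strain and sex are not given in the labels, nor is an injection of the Normoxic mice, so oxygen history and injection cannot be told apart in comparisons with Normoxic. All 9 libraries carry the same batch label. No sample here is labelled as hydrogel without PCC1, so the drug and its carrier cannot be told apart either. Nothing in the labels says that replicates are separate animals, so p-values measure only the spread between these samples.

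Cones carry daylight and colour vision. Light activates a cone opsin, the opsin activates transducin, transducin releases phosphodiesterase from its inhibitory subunit, and the fall in cyclic GMP closes a cation channel of the outer segment. Arrestin then caps the opsin. Rods run the same cascade with their own set of related proteins, and in human patients loss of GNAT2, PDE6C, PDE6H, CNGA3 or CNGB3 causes achromatopsia, a lack of cone vision. Mouse cones are few among many rods, and most of them make both opsins, with the short-wavelength opsin richer in the ventral retina and the middle-wavelength opsin in the dorsal retina.

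The promoters of 4 members are shown because Crx and nuclear receptors are known to act on photoreceptor promoters, and Rorb, a nuclear receptor, fell in both OIR groups as described further on. The RefSeq table (GRCm38.p6, not the GRCm39 build named for the counts) held a window of 250 bases before to 50 after the start for 6 of the 10 members, Opn1sw, Opn1mw, Gnat2, Pde6h, Arr3 and Cnga3. Capitals mark TAATCC or TAATCT, letters that Crx is known to bind, and AGGTCA, the half-site of nuclear receptors such as Rorb and Thrb, searched on both strands with no overlap between matches. The windows are chr6:29380464-29380763 on the minus strand for Opn1sw, and on the plus strand chrX:74127216-74127515 for Opn1mw, chr3:108092816-108093115 for Gnat2 and chrX:100605247-100605546 for Arr3.
Opn1sw: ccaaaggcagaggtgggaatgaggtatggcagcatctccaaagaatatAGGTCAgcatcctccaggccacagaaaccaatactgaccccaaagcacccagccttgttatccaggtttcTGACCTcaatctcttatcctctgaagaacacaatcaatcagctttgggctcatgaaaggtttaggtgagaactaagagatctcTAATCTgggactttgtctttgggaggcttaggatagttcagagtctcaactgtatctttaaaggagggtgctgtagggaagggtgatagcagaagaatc
Opn1mw: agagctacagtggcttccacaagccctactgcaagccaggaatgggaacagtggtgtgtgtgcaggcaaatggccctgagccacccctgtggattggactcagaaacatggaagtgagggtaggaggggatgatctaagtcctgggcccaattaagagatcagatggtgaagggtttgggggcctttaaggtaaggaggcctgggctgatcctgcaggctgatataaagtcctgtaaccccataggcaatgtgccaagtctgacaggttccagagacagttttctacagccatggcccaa
Gnat2: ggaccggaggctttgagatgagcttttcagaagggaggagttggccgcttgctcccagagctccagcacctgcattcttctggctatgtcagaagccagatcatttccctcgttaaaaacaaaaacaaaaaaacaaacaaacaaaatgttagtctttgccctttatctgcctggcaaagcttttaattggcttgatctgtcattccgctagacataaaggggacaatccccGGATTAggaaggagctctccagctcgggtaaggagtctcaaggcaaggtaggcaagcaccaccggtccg
Arr3: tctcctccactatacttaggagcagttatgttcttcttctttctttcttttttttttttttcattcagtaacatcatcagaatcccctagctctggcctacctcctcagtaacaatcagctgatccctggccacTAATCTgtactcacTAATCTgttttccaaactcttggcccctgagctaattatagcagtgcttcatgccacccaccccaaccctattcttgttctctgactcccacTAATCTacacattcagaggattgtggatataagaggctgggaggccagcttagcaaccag
Opn1sw held 1 TAATCT and 2 AGGTCA, with the AGGTCA matches on opposite strands. Gnat2 held 1 TAATCC, on the opposite strand, 19 bases before its start, and Arr3 held 3 TAATCT. Neither motif was in the windows of Opn1mw, Pde6h or Cnga3. Of 32851 windows of the same length, 14.4% held TAATCC or TAATCT and 16.3% held AGGTCA. A match of letters is a description and not a binding site.

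Total counts were 29324142 to 35663470 per library. PBS 3 stood apart from the other libraries, and its difference from Normoxic followed gene length. In PBS 3 the median log2 difference from the Normoxic mean was 0.76 for 1057 genes shorter than 1000 bases and -0.39 for 2607 genes of 8000 bases or more. The same medians were -0.10, 0.26 and 0.20 for the short genes in Gel 1 to 3, and 0.022 and 0.049 in PBS 1 and PBS 2. The share of ribosomal protein genes was 2.68% in PBS 3, and elsewhere 1.08 to 1.66%. Sag, the rod arrestin and a defining photoreceptor gene, stood at 3933 to 5639 CPM (counts per 1000000 counts of the library). The 6 pigment epithelium markers summed to 129 to 209 CPM in Gel, 49.3 to 188 CPM in PBS and 19.7 to 85.4 CPM in Normoxic. The 6 microglia markers summed to 63.8 to 79.4, 71.9 to 104 and 29.3 to 34.3 CPM in Gel, PBS and Normoxic. The microglia markers Cx3cr1, Csf1r and C1qa, 3 of the 6, rose in PBS versus Normoxic and in Gel versus Normoxic by edgeR. Of all genes tested 4.31% and 1.12% rose in these comparisons. In Gel versus Normoxic the call of C1qa ended without Gel 2, Normoxic 1 or Normoxic 2, and that of Cx3cr1 without Gel 2, Gel 3 or any Normoxic library. Of the 6 pigment epithelium markers edgeR called 0 in each comparison, with 2 at an unadjusted p under 0.05 in PBS versus Normoxic, 2 in Gel versus PBS, and for Gel versus Normoxic 4. The shares of all genes tested under 0.05 were 21.4%, 5.54% and 13.2% in the same order. DESeq2 called 1 of the pigment epithelium markers, Lrat, higher in Gel than in either PBS or Normoxic, and limma-voom called it higher in Gel than in Normoxic. The 6 Müller glia markers summed to 3744 to 4903 CPM in Gel, 3366 to 4500.5 CPM in PBS and 4255 to 4708 CPM in Normoxic. Of these 6 edgeR called 2 lower in PBS than in Normoxic, where it called 2.03% of all genes tested lower. The 2 were the water channel Aqp4 (log2 -0.66 ± 0.10, edgeR adjusted p = 0.00402) and the potassium channel Kcnj10 (log2 -0.46 ± 0.12, edgeR adjusted p = 0.0473). The call of Kcnj10 ended under 12 of the 17 alternatives, among them leaving out any library but PBS 2. The lens markers summed to 2.10 to 6.26 CPM in Gel, 1.18 to 3.60 CPM in PBS and 4.09 to 31.5 CPM in Normoxic, with 31.5 CPM in Normoxic 2. Of the 3 lens markers that passed the filter, 1 fell in PBS versus Normoxic, where 2.03% of all genes tested fell. It was Bfsp2, a lens filament protein (log2 -2.08 ± 0.39, edgeR adjusted p = 0.00967). Aqp4 and Bfsp2 kept their calls under all 17 alternatives. The part of these microglia, pigment epithelium, Müller glia and lens markers in the results was not tested. In RefSeq (GRCm38.p6) Opn1sw overlaps Calu, Gngt2 overlaps Abi3 and Gnat2 overlaps Gm12500, all protein-coding. Opn1mw and Cngb3 overlap the pseudogenes Gm6758 and Gm11877, and Pde6c overlaps the long noncoding RNA genes Gm32440 and Gm52398. The sources used here do not say how counting treated strand, so reads from those overlaps cannot be told apart.

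Differences are log2 fold changes ± SE from edgeR's quasi-likelihood test on counts, fitted to all 9 libraries, with Benjamini-Hochberg adjustment over 17362 genes. A gene is said to have risen or fallen where this adjusted p was under 0.05. In PBS versus Normoxic 1 of the 10 cone genes, Gnb3, rose and 0 fell, while 6.34% of all genes tested were called, 4.31% rising and 2.03% falling. DESeq2 and limma-voom called Gnb3 as well and no other member. At an unadjusted p under 0.05 there were 3 of the 10 (Opn1sw, Gnb3 and Pde6h), where 21.4% of all genes were. In Gel versus PBS edgeR, DESeq2 and limma-voom each called 0 of the 10, and edgeR called 0% of all genes. At an unadjusted p under 0.05 there was 1 of the 10 (Gnb3), against 5.54% of all genes. In Gel versus Normoxic edgeR, DESeq2 and limma-voom each called 0 of the 10, where edgeR called 1.41% of all genes, 1.12% rising and 0.288% falling. There 0 of the 10 had an unadjusted p under 0.05, against 13.2% of all genes. In these bulk libraries a change in the number of cones, in RNA per cone and in the RNA that other cells add to the library cannot be told apart.

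**Figure D1:**
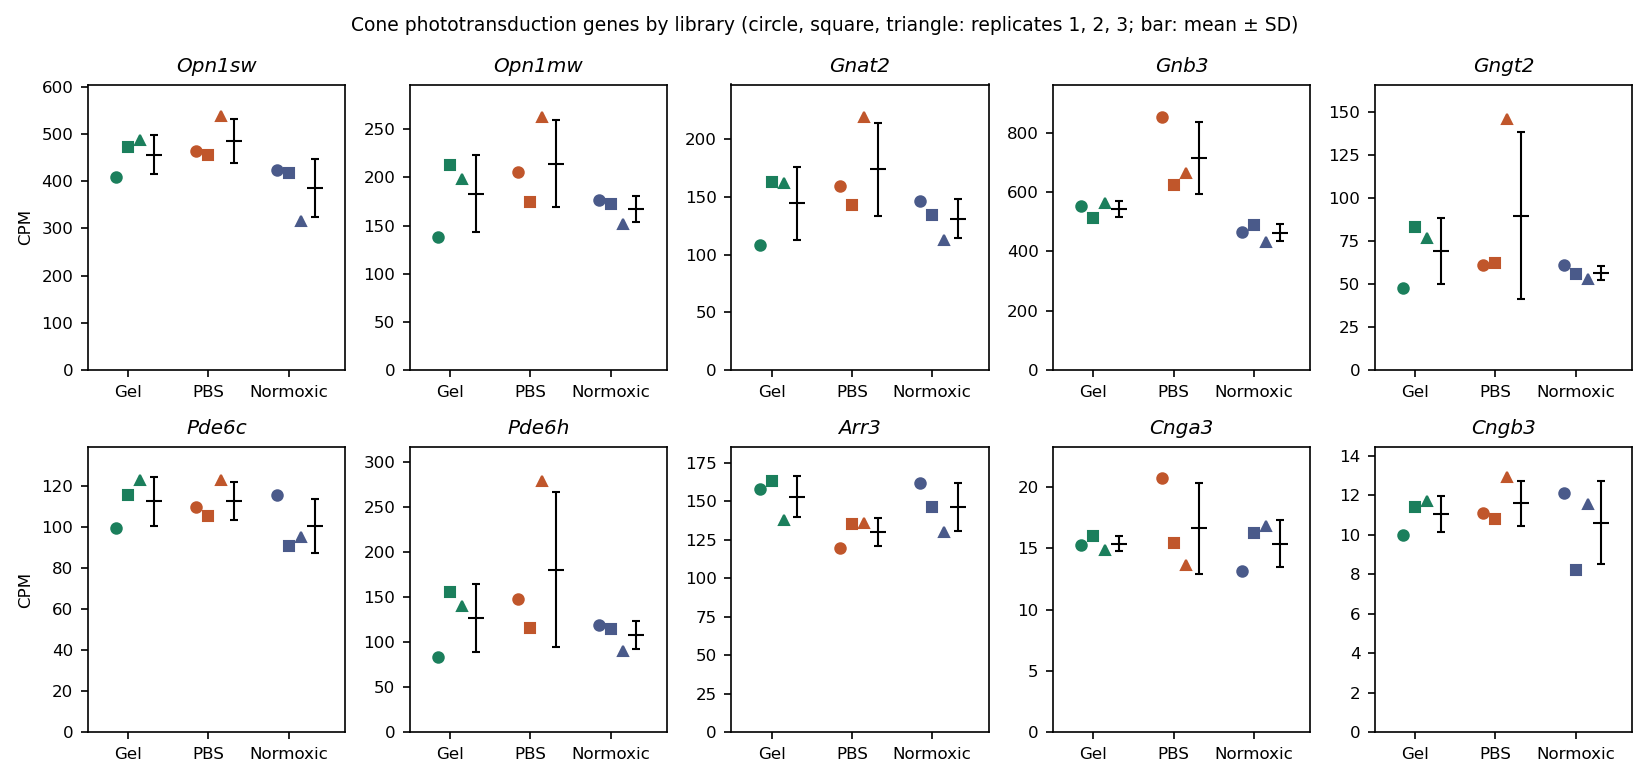
CPM of each cone phototransduction gene in the 9 libraries, with groups from left to right Gel, PBS and Normoxic, symbols for replicates, and the mean ± SD (n = 3) beside each group. For Gnb3 all PBS libraries (625 to 854 CPM) lie above all Gel and all Normoxic libraries, and PBS 3 is high for Gngt2 and Pde6h.

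The opsins set which wavelengths a cone absorbs. Opn1sw (Entrez 12057), the short-wavelength opsin, was at 409, 472 and 487 CPM in Gel 1 to 3, 463, 454 and 538 CPM in PBS 1 to 3, and 424, 418 and 315 CPM in Normoxic 1 to 3. All PBS values lay above all Normoxic values, and the Gel values overlapped both. The PBS mean was 485 ± 46.2 CPM against 385 ± 61.3 CPM in Normoxic (SD, n = 3). The log2 difference of 0.35 ± 0.14 (95% interval 0.031 to 0.66) missed the threshold, with an edgeR adjusted p of 0.192. Opn1mw (Entrez 14539), the middle-wavelength opsin, was at 138, 213 and 199 CPM in Gel 1 to 3, 205, 175 and 263 CPM in PBS 1 to 3, and 177, 172 and 152 CPM in Normoxic 1 to 3. PBS 3 was the highest library for Opn1mw and Gel 1 the lowest, and every pair of groups overlapped. Its log2 differences were 0.38 ± 0.19 in PBS versus Normoxic, -0.23 ± 0.19 in Gel versus PBS, and for Gel versus Normoxic 0.14 ± 0.19 (edgeR adjusted p 0.289, 0.987 and 0.793). Without PBS 3 the first of these was 0.17 and the second -0.025, and the third was 0.0053 without Gel 2 and 0.32 without Gel 1. For Opn1sw the last comparisons gave -0.093 ± 0.14 and 0.25 ± 0.14 (edgeR adjusted p 0.987 and 0.499), and without PBS 3 Opn1sw was at 0.24 in PBS versus Normoxic and 0.022 in Gel versus PBS.

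The balance of the opsins was read as a count ratio within each library, which needs no scaling for depth. Opn1sw is 2410 bases long and Opn1mw 1221, so a trend on gene length does not cancel in the ratio. The ratio was highest in Gel 1 and lowest in PBS 3, and the part of length in it was not tested. Opn1sw counts per Opn1mw count were 2.97, 2.22 and 2.45 in Gel 1 to 3, 2.26, 2.60 and 2.05 in PBS 1 to 3 and 2.40, 2.42 and 2.07 in Normoxic 1 to 3. The groups overlapped, with means of 2.55 ± 0.385 in Gel, 2.30 ± 0.280 in PBS and 2.30 ± 0.196 in Normoxic (SD, n = 3). Exact two-sided permutation tests of the log2 ratio gave p = 1 for PBS versus Normoxic, 0.500 for Gel versus PBS, and, between Gel and Normoxic, 0.400 (Benjamini-Hochberg adjusted over the 3 comparisons: 1, 0.750 and 0.750). With 3 libraries against 3 this test cannot go below 0.1. A shift in opsin balance between groups was not detectable with 3 libraries a group.

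Transducin passes the signal from opsin to phosphodiesterase, and Gnb3 (Entrez 14695) encodes its cone beta subunit. Gnb3 was at 552, 513 and 563 CPM in Gel 1 to 3, 854, 625 and 664 CPM in PBS 1 to 3, and 466, 489.5 and 432 CPM in Normoxic 1 to 3. All PBS values lay above all Gel values, and all Gel values above all Normoxic values. Gnb3 rose 1.56-fold in PBS versus Normoxic (714 ± 122 CPM and 463 ± 28.6 CPM, SD, n = 3, log2 0.64 ± 0.13, 95% interval 0.35 to 0.92, edgeR adjusted p = 0.0157). Leaving out Normoxic 1, 2 or 3 ended this edgeR call (adjusted p 0.0706, 0.0580 and 0.0834) while the log2 difference stayed at 0.60 to 0.68. Without PBS 3 the log2 difference was 0.66 (edgeR adjusted p = 0.0102), and without PBS 1, the library with the most Gnb3, it was 0.49 (edgeR adjusted p = 0.0441). Over the 17 alternatives run its adjusted p was 0.000217 to 0.0834, and the call held in 14. In Gel versus PBS, Gnb3 had a log2 difference of -0.40 ± 0.13 with an unadjusted p of 0.0110 that did not pass the adjustment (edgeR adjusted p = 0.669, 95% interval -0.68 to -0.11). In Gel versus Normoxic it was 0.24 ± 0.13 (edgeR adjusted p = 0.480).

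Gnb3 is not particular to cones, because ON bipolar cells, which invert the photoreceptor signal through the glutamate receptor mGluR6, use it as well. Among 12 ON bipolar genes, all of which passed the filter, 0 rose and 1 fell in PBS versus Normoxic, against 4.31% and 2.03% of all genes tested. An unadjusted p under 0.05 was held by 6 of the 12, against 21.4%. Their median log2 difference was -0.25, against 0.0098 over all genes tested. The gene that fell was Isl1, a transcription factor of ON bipolar and some inner retinal cells, at 87.0, 77.7 and 80.8 CPM in PBS 1 to 3 and 127, 120.3 and 115 CPM in Normoxic 1 to 3 (log2 -0.55 ± 0.10, edgeR adjusted p = 0.0113). Its call ended without Normoxic 1 or Normoxic 2 (edgeR adjusted p up to 0.0558). Grm6, which encodes mGluR6, was at 257, 286 and 159 CPM in PBS 1 to 3 and 338, 369.6 and 379 CPM in Normoxic 1 to 3 (log2 -0.63 ± 0.19, edgeR adjusted p = 0.0840), and Trpm1, the channel it controls, had a log2 difference of -0.52 ± 0.17 (edgeR adjusted p = 0.110). Grm6 and Trpm1 were lower in every PBS library than in every Normoxic library, the opposite order to Gnb3, without passing the test. In 5 of the 12 all PBS values lay below all Normoxic values and in 0 above, against 14.1% and 14.9% of all genes tested. Grm6 and Trpm1 are long, at 5971 and 11181 bases, and were lowest in PBS 3 (159 and 222 CPM). The short Gng13 (468 bases) and Pcp2 (837 bases) were highest in PBS 3, at 90.9 and 201 CPM. The part of length in these differences was not tested. In Gel versus Normoxic, 0 of the 12 rose and 1 fell, against 1.12% and 0.288% of all genes tested. It was Isl1 again (77.7, 73.1 and 89.2 CPM in Gel 1 to 3, log2 -0.58 ± 0.10, edgeR adjusted p = 0.0232). That call ended without Gel 1, Gel 2 or any Normoxic library (edgeR adjusted p up to 0.131). All Gel values lay below all Normoxic values in 5 of the 12 and above in 0, against 12.8% and 11.1% of all genes tested. Between these groups 11 of the 12 were negative, with a median of -0.22 against 0.00070 over all genes tested. An unadjusted p under 0.05 was held there by 3 of the 12, against 13.2%. In Gel versus PBS edgeR called 0 of the 12 and 0 had an unadjusted p under 0.05. DESeq2 and limma-voom called 0 of the 12 there as well, while DESeq2 called Gnao1, Grm6 and Isl1 lower in PBS than in Normoxic. Which cells the Gnb3 counts came from was not tested.

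The other transducin subunits did not pass the test. Gnat2 (Entrez 14686), the cone alpha subunit that activates phosphodiesterase, was at 108, 163 and 162 CPM in Gel 1 to 3, 159.6, 143 and 219 CPM in PBS 1 to 3, and 147, 134 and 113 CPM in Normoxic 1 to 3. PBS 3 was highest and Gel 1 lowest, and the groups overlapped (log2 0.43 ± 0.21 in PBS versus Normoxic, edgeR adjusted p = 0.260). Without PBS 3 its difference was 0.19 in PBS versus Normoxic and -0.036 in Gel versus PBS. Gngt2 (Entrez 14710), the cone gamma subunit, was at 47.7, 83.3 and 76.6 CPM in Gel 1 to 3, 61.2, 62.2 and 146 CPM in PBS 1 to 3, and 60.9, 56.1 and 52.8 CPM in Normoxic 1 to 3. PBS 3 held more than any other library, and all PBS values lay above all Normoxic values, PBS 1 and Normoxic 1 being close. Its log2 difference in PBS versus Normoxic was 0.69 ± 0.33 (edgeR adjusted p = 0.253) with PBS 3 and 0.11 (edgeR adjusted p = 0.838) without it, and its adjusted p over the 17 alternatives was 0.135 to 0.838. In Gel versus PBS the log2 difference of Gngt2 was -0.39 ± 0.33, which turned to 0.20 without PBS 3.

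Phosphodiesterase breaks down cyclic GMP, with Pde6c as the catalytic and Pde6h as the inhibitory subunit of cones. Pde6c (Entrez 110855) was at 99.4, 116 and 123 CPM in Gel 1 to 3, 109.6, 105 and 123 CPM in PBS 1 to 3, and 115, 90.6 and 95.3 CPM in Normoxic 1 to 3. Its values spanned 1.36-fold from the lowest to the highest library, as did those of Arr3, the narrowest spans of the 10 genes, and the groups overlapped. Its log2 differences were 0.18 ± 0.13 in PBS versus Normoxic, -0.0033 ± 0.13 in Gel versus PBS, and for Gel versus Normoxic 0.18 ± 0.13. Pde6h (Entrez 78600) was at 84.2, 156 and 141 CPM in Gel 1 to 3, 148, 116 and 279 CPM in PBS 1 to 3, and 119, 115 and 90.9 CPM in Normoxic 1 to 3. PBS 3 was again highest and Gel 1 lowest, a 3.31-fold span. The log2 difference of Pde6h in PBS versus Normoxic was 0.77 ± 0.32 (95% interval 0.062 to 1.47, edgeR adjusted p = 0.196), and 0.27 without PBS 3 (edgeR adjusted p = 0.592). Over the 17 alternatives its adjusted p was 0.0769 to 0.592. In Gel versus PBS it was -0.52 ± 0.32 (edgeR adjusted p = 0.987) with PBS 3 and -0.025 without it.

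Arr3 (Entrez 170735), the cone arrestin that ends opsin signalling, was at 158, 163 and 138 CPM in Gel 1 to 3, 119.8, 135 and 136 CPM in PBS 1 to 3, and 162, 146 and 130.4 CPM in Normoxic 1 to 3. It was the only member with a log2 difference below 0 in PBS versus Normoxic (-0.15 ± 0.12, edgeR adjusted p = 0.470) and the only member with a positive log2 difference in Gel versus PBS (0.23 ± 0.12, edgeR adjusted p = 0.962), and neither passed the test. All Gel values of Arr3 lay above all PBS values, and those of Gnb3 below, orders that 2.73% and 5.15% of all genes tested had. For Arr3 both groups overlapped Normoxic. The channel subunits Cnga3 (Entrez 12790), which forms the conducting pore, and Cngb3 (Entrez 30952), its modulatory partner, were the least abundant members. Cnga3 was at 15.3, 16.0 and 14.9 CPM in Gel 1 to 3, 20.8, 15.4 and 13.7 CPM in PBS 1 to 3, and 13.2, 16.2 and 16.8 CPM in Normoxic 1 to 3. Cngb3 was at 9.998, 11.4 and 11.7 CPM in Gel 1 to 3, 11.1, 10.8 and 12.9 CPM in PBS 1 to 3, and 12.1, 8.21 and 11.6 CPM in Normoxic 1 to 3. The groups overlapped for both genes. In PBS versus Normoxic their log2 differences were 0.12 ± 0.16 and 0.14 ± 0.17 (edgeR adjusted p 0.706 and 0.655), and Cnga3 turned to -0.071 without PBS 1, Cngb3 to -0.015 without Normoxic 2. In Gel versus Normoxic they were 0.0097 ± 0.16 for Cnga3 and 0.068 ± 0.17 for Cngb3, and in Gel versus PBS -0.11 ± 0.16 and -0.074 ± 0.17.

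**Figure D2:**
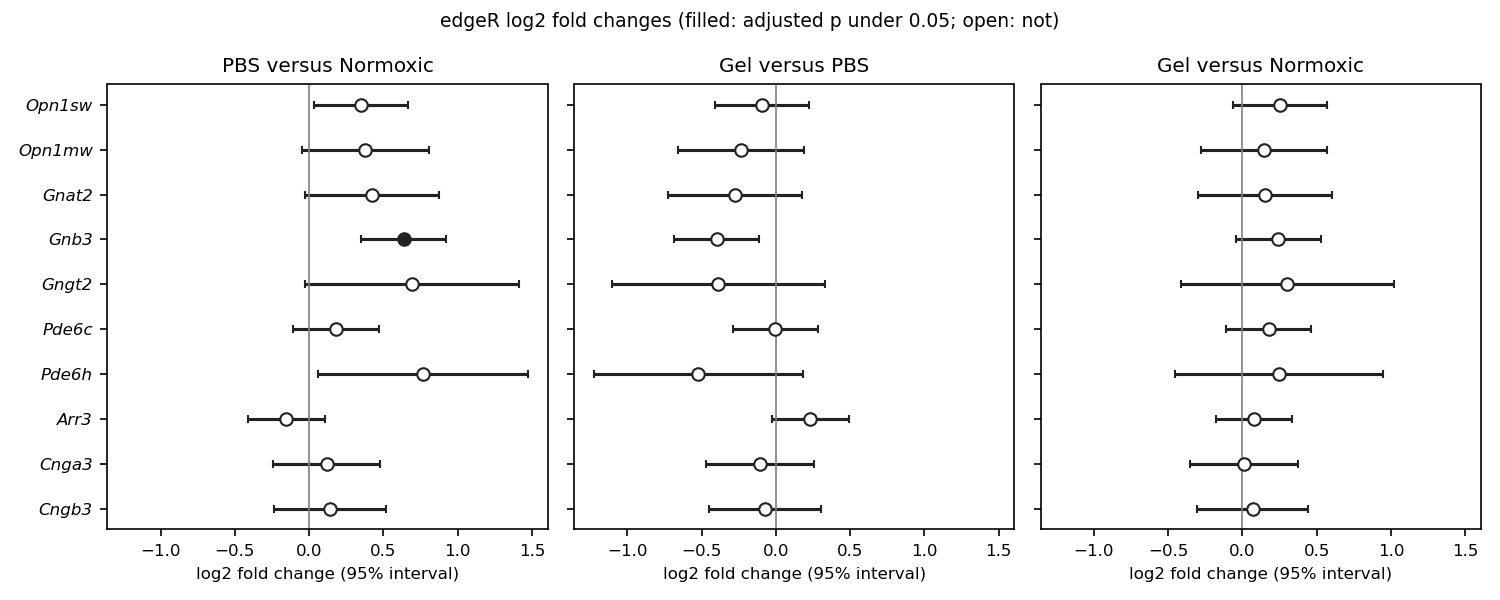
Log2 fold change with its 95% interval for each cone gene in the 3 comparisons, from edgeR, with a filled circle where the adjusted p was under 0.05. Gnb3 in PBS versus Normoxic (0.64) is the filled circle, and the intervals of Gngt2 and Pde6h are the widest.

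As a list, 9 of the 10 members had a positive log2 difference in PBS versus Normoxic, with a median of 0.36 against 0.0098 over all genes tested. In 3 of the 10, Opn1sw, Gnb3 and Gngt2, all PBS values lay above all Normoxic values, an order that 14.9% of all genes tested had, and in 0 of the 10 did all lie below, against 14.1%. Without PBS 3 the members' median was 0.18, again with 9 positive, and with each library's trend on gene length removed it was 0.22. In Gel versus PBS, 9 of the 10 were negative with a median of -0.17, against -0.012 over all genes tested, and without PBS 3 the median was -0.0014 with 5 negative. In Gel versus Normoxic all 10 were positive, from 0.0097 for Cnga3 to 0.30 for Gngt2, with a median of 0.16 against 0.00070 over all genes tested. That median was 0.046 without Gel 2, with 9 positive, 0.29 without Gel 1 and 0.099 with the length trend removed. In 1 of the 10, Gnb3, all Gel values lay above all Normoxic values, against 11.1% of all genes, and in 0 of the 10 below, against 12.8%. The Gel versus Normoxic differences not given above were 0.15 ± 0.20 for Gnat2, 0.30 ± 0.33 for Gngt2, 0.25 ± 0.32 for Pde6h and 0.078 ± 0.12 for Arr3, with edgeR adjusted p of 0.794, 0.731, 0.785 and 0.818, and Gnat2 in Gel versus PBS was at -0.27 ± 0.20 (edgeR adjusted p = 0.987). The comparisons share their PBS, Normoxic or Gel libraries, so these medians are not independent. PBS 3 held the highest value of 7 members and PBS 1 that of Gnb3 and Cnga3, while Gel 1 held the lowest value of 4.

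The size of the differences followed gene length in PBS 3 more than in the other Gel and PBS libraries. Pde6h and Gngt2 are the shortest members, at 652 and 914 bases, and stood 1.43 and 1.43 above the Normoxic mean in PBS 3 on the log2 scale. In PBS 2 they stood at 0.076 and 0.10, and in Gel 1 at -0.35 and -0.24. Cnga3 and Cngb3, the longest at 4222 and 4708 bases, stood at -0.10 and 0.36 in PBS 3. Gnb3 (1846 bases) and Arr3 (2101 bases) are of middle length and did not follow that order, with Gnb3 highest in PBS 1 (0.89) and Arr3 at -0.28 in the same library. With the length trend removed, the log2 difference in PBS versus Normoxic was 0.53 for Gnb3 (edgeR adjusted p = 0.0393), 0.38 for Pde6h (edgeR adjusted p = 0.186) and 0.35 for Gngt2 (edgeR adjusted p = 0.263).

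**Figure D3:**
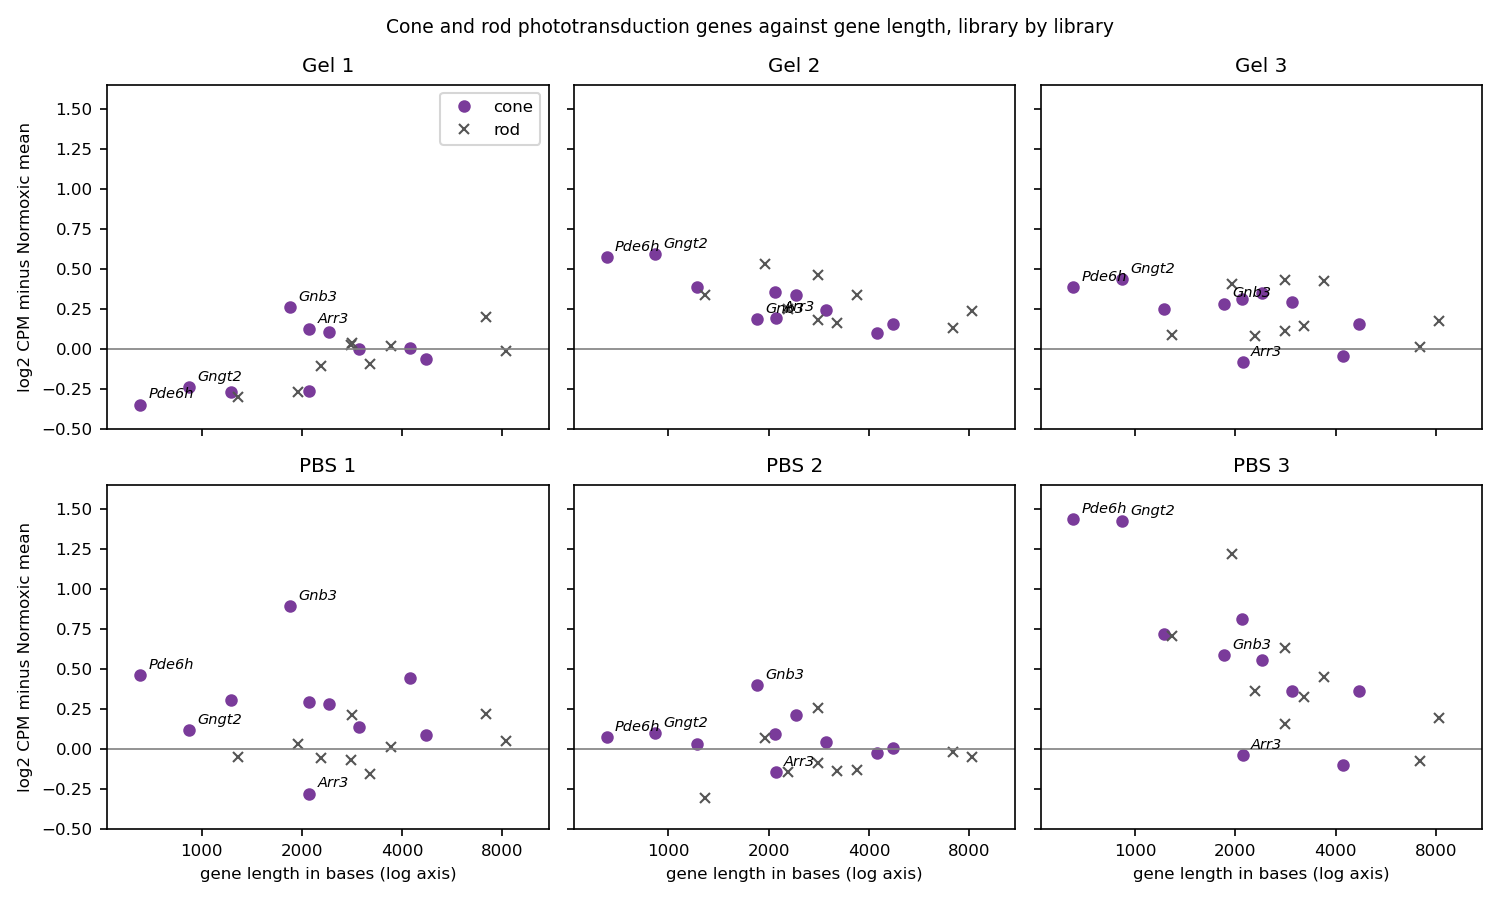
Log2 CPM minus the Normoxic mean against gene length in bases (log axis) for the 10 cone genes (circles) and their 9 rod counterparts (crosses) in each Gel and PBS library. In PBS 3 the shortest genes lie highest, Pde6h and Gngt2 at 1.43 and 1.43, while in PBS 1 the highest point is Gnb3 at 0.89.

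Levels of different members were compared per length, in FPKM (counts scaled by library total and gene length), as mean ± SD over all 9 libraries. Gnb3 led with 311 ± 69.7 FPKM, followed by Pde6h with 213 ± 88.6 FPKM, Opn1sw with 183 ± 25.8 FPKM and Opn1mw with 154 ± 30.4 FPKM. Gnb3 exceeded Pde6h in 8 of 9 libraries and Pde6h exceeded Opn1sw in 7, whereas Opn1sw exceeded Opn1mw in all 9. Gngt2 (78.6 ± 32.6 FPKM), Gnat2 (71.6 ± 15.7 FPKM) and Arr3 (68.2 ± 7.20 FPKM) followed. These neighbours did not differ beyond their spread, since Gngt2 exceeded Gnat2 in 5 and Gnat2 exceeded Arr3 in 5 of 9 libraries. In Normoxic alone their order of means differed, with Arr3 at 69.6 ± 7.53 FPKM, Gnat2 at 62.7 ± 8.19 FPKM and Gngt2 at 61.9 ± 4.46 FPKM (SD, n = 3). Pde6c (36.6 ± 3.97 FPKM), Cnga3 (3.74 ± 0.521 FPKM) and Cngb3 (2.36 ± 0.287 FPKM) came last, and each of these steps down, Arr3 to Pde6c included, had ranges that did not overlap over the 9 libraries.

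The rod counterparts Gnat1, Gnb1, Gngt1, Pde6a, Pde6b, Pde6g, Sag, Cnga1 and Cngb1 show how the same step of the cascade stood in rods. Gnb1 is made by most cell types and Gnb3 also by ON bipolar cells, so their ratio is not of rods and cones alone. Of these 9 genes edgeR called 0 in each of the 3 comparisons, and DESeq2 and limma-voom also called 0. At an unadjusted p under 0.05 there was 1 in PBS versus Normoxic, 0 in Gel versus PBS, and for Gel versus Normoxic 0. The shares of all genes tested were 21.4%, 5.54% and 13.2% in the same order. The gene under 0.05 was Cnga1, the pore subunit of the rod channel (log2 0.38 ± 0.15, edgeR adjusted p = 0.179). Their median log2 difference was 0.067 in PBS versus Normoxic, where the cone members had 0.36. The cone median was 0.18 without PBS 3 and 0.22 with the length trend removed, settings for which no rod median was computed. In Gel versus Normoxic the medians were 0.11 for the rod and 0.16 for the cone genes, and in Gel versus PBS 0.046 and -0.17. Pde6h per 100 Pde6g counts were 5.10, 6.20 and 6.49 in Gel, 7.52, 6.87 and 8.74 in PBS and 5.89, 5.73 and 4.33 in Normoxic, with PBS above both other groups. Gngt2 per 100 Gngt1 counts were 13.0, 13.4 and 13.0 in Gel, 13.6, 13.1 and 14.8 in PBS and 13.0, 13.9 and 11.6 in Normoxic, which overlapped. The high value of Gngt2 in PBS 3 stood beside a high value of Gngt1, the rod gamma subunit, at 985 CPM in PBS 3 and 366 to 623 CPM in the other libraries. Gnb3 per 100 Gnb1 counts were 12.9, 10.2 and 11.1 in Gel, 20.8, 14.6 and 12.1 in PBS and 10.03, 10.7 and 9.48 in Normoxic. All PBS values of that ratio exceeded all Normoxic values. Pde6h (652 bases) is shorter than Pde6g (1287), and Gnb3 (1846) than Gnb1 (3204), so a trend on gene length stays in both ratios. Within PBS the Pde6h ratio was highest in PBS 3 and the Gnb3 ratio lowest there. The part of length in the ratios was not tested. Gnat2 per 100 Gnat1 counts were 1.10, 1.32 and 1.44 in Gel, 1.56, 1.45 and 1.68 in PBS and 1.48, 1.31 and 0.956 in Normoxic, with all Gel values below all PBS values and Normoxic overlapping both. The mean of Arr3 per 100 Sag counts was 3.11 ± 0.641 in Gel, 2.92 ± 0.491 in PBS and 3.50 ± 0.576 in Normoxic (SD, n = 3), and that of Cnga3 per 100 Cnga1 counts 2.31 ± 0.378, 2.43 ± 0.809 and 2.84 ± 0.577 in the same groups. These overlapped in every pair of groups, as did the ratios of Pde6c to Pde6a and Pde6b and of Cngb3 to Cngb1. Of the 8 ratios, 2 lay wholly higher in PBS than in Normoxic (those of Gnb3 and Pde6h), 2 wholly lower in Gel than in PBS (those of Gnat2 and Pde6h) and 0 lay apart between Gel and Normoxic. No test of these ratios was run, and no share of such orders over other ratios was computed. Of single genes tested, 14.9% lay wholly higher in PBS than in Normoxic and 5.15% wholly lower in Gel than in PBS.

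**Figure D4:**
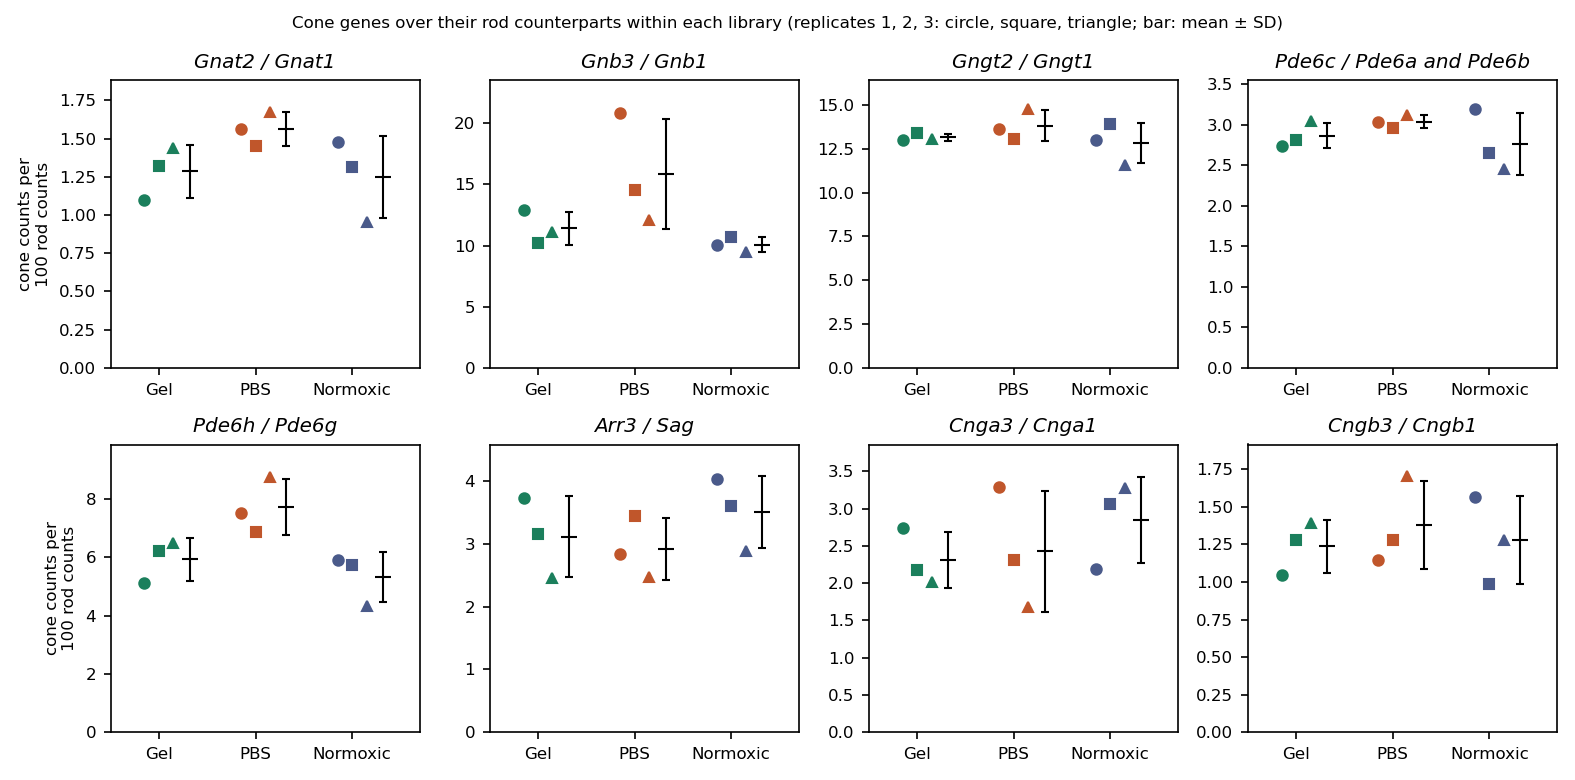
Counts of 8 cone genes per 100 counts of their rod counterparts within each library, with groups from left to right Gel, PBS and Normoxic and the mean ± SD (n = 3) beside each group. Pde6h per 100 Pde6g counts is 6.87 to 8.74 in PBS, above every Gel and Normoxic library. Pde6h is 652 bases long and Pde6g 1287, and the ratios are not corrected for length.

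Transcription factors set which photoreceptor genes are made. Of 12 regulators of photoreceptor and cone identity, 0 rose and 1 fell in PBS versus Normoxic, where 4.31% of all genes tested rose and 2.03% fell. Between Gel and Normoxic 1 rose and 1 fell, against 1.12% and 0.288%. An unadjusted p under 0.05 was held by 4 of the 12 in each of these comparisons, against 21.4% and 13.2%. All PBS values lay above all Normoxic values in 4 of the 12 and below in 1, against 14.9% and 14.1%. For Gel these were 5 and 3, against 11.1% and 12.8%. For Gel versus PBS edgeR called 0, 0 had an unadjusted p under 0.05, and DESeq2 and limma-voom also called 0. Rorb, a nuclear receptor that mice need to form rods and to switch on Opn1sw, was at 138, 148 and 159 CPM in Gel 1 to 3, 146, 141 and 146 CPM in PBS 1 to 3, and 297, 270.3 and 264 CPM in Normoxic 1 to 3. All Gel and PBS libraries lay below all Normoxic libraries. Rorb fell in PBS versus Normoxic (log2 -0.93 ± 0.10, edgeR adjusted p = 0.000633) and in Gel versus Normoxic (log2 -0.89 ± 0.10, edgeR adjusted p = 0.00236), and Gel and PBS overlapped (log2 0.036 ± 0.10). Both calls of Rorb held in all 17 alternatives run, with a highest edgeR adjusted p of 0.0105 in PBS versus Normoxic and 0.0268 in Gel versus Normoxic. Rorb is also made by horizontal and amacrine cells, and its length in the table is 18342 bases. With the length trend removed its log2 differences were -0.72 in PBS versus Normoxic and -0.78 in Gel versus Normoxic.

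Nr2e3, which represses cone genes in mouse rods, was at 1076, 892 and 1094 CPM in Gel 1 to 3, 737, 869 and 1042 CPM in PBS 1 to 3, and 606, 613 and 648 CPM in Normoxic 1 to 3. It rose in Gel versus Normoxic (log2 0.72 ± 0.15, edgeR adjusted p = 0.0405), a call that ended without any 1 Gel library, any 1 Normoxic library or PBS 2 (edgeR adjusted p up to 0.190). In PBS versus Normoxic it did not pass (log2 0.52 ± 0.15, edgeR adjusted p = 0.0632), with all PBS values above all Normoxic values. DESeq2 called it in both comparisons. Thrb, whose retinal isoform is needed for middle-wavelength opsin in mice, had log2 differences of 0.28 ± 0.10 in PBS versus Normoxic and 0.36 ± 0.10 in Gel versus Normoxic, and Crx, an activator of rod and cone genes, 0.28 ± 0.12 and 0.28 ± 0.12. Neither passed edgeR's test (adjusted p 0.129 and 0.113 for Thrb, 0.199 and 0.345 for Crx), while DESeq2 called Thrb higher in Gel than in Normoxic. Rxrg, a cone-enriched receptor, was at 10.6 ± 1.47 CPM in Gel, 10.1 ± 1.15 CPM in PBS and 10.6 ± 1.13 CPM in Normoxic. Otx2, Neurod1, Rora, Sall3, Nr2f1, Nr2f2 and Nrl were called by none of the 3 tools in any comparison.

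**Figure D5:**
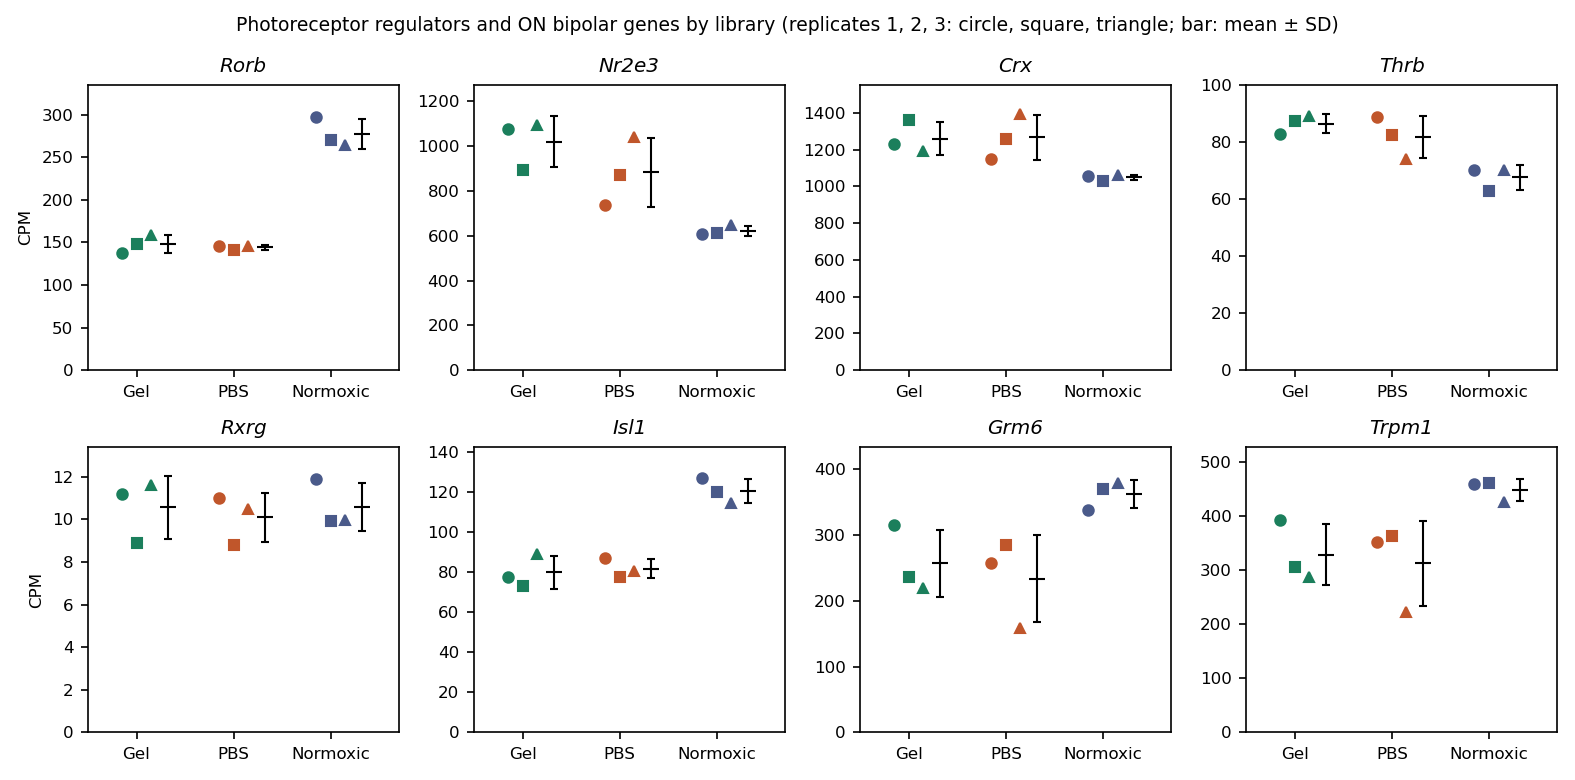
CPM of 5 photoreceptor regulators and 3 ON bipolar genes in the 9 libraries, with groups from left to right Gel, PBS and Normoxic and the mean ± SD (n = 3) beside each group. Rorb is at 138 to 159 CPM in Gel, 141 to 146 CPM in PBS and 264 to 297 CPM in Normoxic.

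The genes that end the light response and restore cyclic GMP are mostly shared by cones and rods. Of 12 such genes edgeR called 0 in each comparison, with 2 at an unadjusted p under 0.05 in PBS versus Normoxic, 0 in Gel versus PBS, and for Gel versus Normoxic 2. The shares of all genes tested under 0.05 were 21.4%, 5.54% and 13.2% in the same order. All PBS values lay above all Normoxic values in 2 of the 12 and below in 0, against 14.9% and 14.1% of all genes. Between Gel and Normoxic these counts were 5 and 0, against 11.1% and 12.8%. Gnb5, the partner that stabilises the transducin-silencing protein Rgs9, was at 934, 1090 and 1045 CPM in Gel 1 to 3, 965, 942 and 1275 CPM in PBS 1 to 3 and 772, 755 and 642 CPM in Normoxic 1 to 3. All Gel and PBS libraries lay above all Normoxic libraries, with edgeR adjusted p = 0.0509 in PBS versus Normoxic (log2 0.57 ± 0.15) and 0.146 in Gel versus Normoxic (log2 0.51 ± 0.15). Guca1a, an activator of the guanylate cyclase that remakes cyclic GMP, had log2 differences of 0.59 ± 0.21 in PBS versus Normoxic and 0.60 ± 0.21 in Gel versus Normoxic (edgeR adjusted p 0.137 and 0.227). DESeq2 called Gnb5 higher in both and 0 of the 12 in Gel versus PBS, and limma-voom called 0 in each comparison. Guca1a is short, at 958 bases.

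Of 5 further genes used as cone markers, 4 passed the filter, Clca3a2 being at 0 to 2 counts per library, and edgeR, DESeq2 and limma-voom called 0 of these in each comparison, with 2 at an unadjusted p under 0.05 in PBS versus Normoxic and 0 in either other comparison. Those were Kcne2, a potassium channel subunit, with a log2 difference of 0.45 ± 0.15, and Tafa3, a secreted protein, with -0.48 ± 0.21 (edgeR adjusted p 0.113 and 0.226). They lay on opposite sides, with all PBS values of Kcne2 above and all PBS values of Tafa3 below all Normoxic values. Of all genes tested 14.9% and 14.1% had these orders. Kcne2 spans 1771 bases and Tafa3 6748, and Tafa3 was lowest in PBS 3, at 79.4 CPM, beside 144 and 154 CPM in PBS 1 and PBS 2.

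The mean pattern of the 10 members over the 9 libraries, as centred log2 CPM, was set against 10173 genes outside the lists. These passed the filter and averaged 10 CPM or more, and symbols of gene models, such as Gm and Rik names, were left out. Among them the genes with the smallest root mean square difference from the members' pattern were Bloc1s5, Cplx4, Tsen34, M6pr and Hadhb, at 0.0443 to 0.0547 on the log2 scale. These were picked as the nearest of the 10173, so their distances are small by selection. The members, not picked in that way, differed from their own mean pattern by 0.0848 for Opn1mw to 0.292 for Pde6h. That pattern was highest in PBS 3, at 0.45.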

How the data were processed

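Whole-number counts per gene, as deposited, were analysed for 9 mouse retina libraries, 3 a group. The submitters' processing notes name Bowtie2, RSEM 1.3.1, DESeq2 1.4.5 and the build GRCm39 without saying which step each served, and do not say if the counts are rounded estimates. FPKM values deposited by the authors equal the count divided by library total and gene length (relative spread at most 2.89e-10), so they served for length and for levels per length. Columns were matched by library name. With edgeR 4.0.16 in R 4.3.3, filterByExpr (minimum count 10) kept 17362 of 26683 genes, and TMM-scaled counts of all 9 libraries entered glmQLFTest with group as sole term. Calls used an adjusted p under 0.05, and SE is the log2 fold change over the root of F. CPM use library totals, and log2 CPM a prior count of 2. At the lowest depth 1 CPM is 29.3 counts. Alternatives were RLE and upper quartile scaling, no filter, DESeq2 1.42.0, limma-voom (limma 3.58.1), only the libraries compared, a replicate block, removal of each library's lowess trend on gene length (span 0.3), and leaving out each library. Exact permutation tests used SciPy 1.17.1. The edgeR fit was tested on simulated data. All 10 members are named, then the called genes of the rod, shutoff and calcium, regulator, other cone marker and ON bipolar lists, or up to 3 with the smallest p where none was called, and the 5 genes nearest the members' mean pattern. Other genes were named after their values were seen, and an item of the planned lists is not reported here. The members and lists were chosen with earlier results of these data known.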

Additional observations from a re-analysis of the deposited data

How the results depend on the processing

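Of 510 member values under alternatives, 491 kept their sign and side of the threshold, 3 ended a call (Gnb3 in PBS versus Normoxic without any 1 Normoxic library) and 16 changed sign, where no difference had been called. The number of cone genes called was 0 to 1 on leaving out 1 library in PBS versus Normoxic and 0 in both Gel comparisons under every alternative run. The sign changes away from single libraries were those of Pde6c in Gel versus PBS: 0.000979 with RLE size factors, 0.00189 with no filter, 0.00250 with DESeq2, 0.0301 with the length trend removed and 0.00117 with the replicate block. On leaving out each library in turn, Pde6c in Gel versus PBS ran from -0.0658 to 0.0978, Opn1sw from -0.154 to 0.0218 and Gngt2 from -0.606 to 0.198. Cnga3 ran from -0.0709 to 0.218 in PBS versus Normoxic, -0.206 to 0.0819 in Gel versus PBS and -0.0980 to 0.0871 in Gel versus Normoxic, and Cngb3 from -0.0152 to 0.234, -0.139 to 0.0438 and -0.0873 to 0.162 in the same order. The log2 ratio of Opn1sw to Opn1mw in PBS versus Normoxic, -0.00130, ran from -0.0929 to 0.0799. Over all genes, calls in PBS versus Normoxic (1101) were 1858 with DESeq2 and 455 to 1184 on leaving out 1 library. Calls in Gel versus PBS (0) were 24 with no filter, 60 with DESeq2, 3 with the length trend removed and 0 to 12 on leaving out 1 library. Calls in Gel versus Normoxic (245) were 389 with no filter, 769 with DESeq2, 643 with only the libraries compared, 436 with the length trend removed and 47 to 735 on leaving out 1 library. The cause of these changes was not tested. Replicate numbers are shared between groups, but the labels do not say that they pair samples: 2 of 9 same-numbered pairs correlated above 0.1 (-0.21 to 0.36), and a library correlated best with its own number in 4 of 18 checks. With the replicate number as a block, calls numbered 1050 in PBS versus Normoxic, 0 in Gel versus PBS, and between Gel and Normoxic 227, and Gnb3 kept its call, with no other member's call changed (0.63, edgeR adjusted p = 0.0230). The lowest count of any member was 267 (Cngb3 in Normoxic 2).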
